A study of Mus musculus with 6 samples.

Results

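Natural killer (NK) cells and cytotoxic T cells carry receptors of the killer lectin family and store granzymes and perforin in granules, and 47 such genes of the 49315 in the count table were followed through 6 RNA samples of mouse lung. The set was defined by gene name, and it was chosen with earlier results of these data known. It takes every gene whose symbol starts with Klr and a letter from a to k (30 genes), every granzyme gene named Gzm and 1 letter (10 genes), and 7 further genes, Prf1, Nkg7, Ncr1, Eomes, Ctsw, Fasl and Cst7. All 30 Klr genes lie on chromosome 6 of GRCm38, where most sit side by side in the NK gene complex, and 4 of the 47 are annotated as pseudogenes. Of the 47 genes, 41 had at least 10 reads in some sample. The other 6, Klra11-ps, Gzmd, Gzme, Gzmf, Gzmg and Gzmn, did not, and Gzmd, Gzmf and Gzmg had 0 reads in every sample.

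Killer lectin receptors let an NK cell weigh inhibitory against activating signals from the cell it touches. The Ly49 receptors read classical MHC class I, CD94 with an NKG2 chain reads the non-classical molecule Qa-1, NKG2D reads stress-induced ligands, and the NKR-P1 receptors read proteins of the Clec2 family. On activation the granules are moved to the contact site, where perforin opens the target membrane and granzymes cleave proteins inside the target. Lamp1 is itself a membrane protein of these granules and of lysosomes, and it appears on the surface of a cytotoxic cell for a time after its granules have been released.

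The lungs came from C57BL/6 mice (C57BL/6J in the study's methods) that carried no transgene or deletion in the labels. Sham mice were given sterile saline and BLM mice Bleomycin sulfate, both through the mouth into the throat (oropharyngeal instillation), and BLM is widely used to bring about lung fibrosis. Cell suspensions of lung were used unsorted, or sorted by surface Lamp1 into a Lamp1-depleted and a Lamp1-enriched fraction. This gave 6 conditions with 1 sample each, and lungs of mice of the same group had been pooled. Sex is given by the study as male, and age is not given in the sources used here for these animals. The differences between sham and BLM, and between fractions of 1 treatment, therefore have no replicate check. The intervals given below are 95% Clopper-Pearson intervals of a ratio of reads, and they cover counting error only. In a bulk sample, fewer cells of a type and less RNA per cell cannot be told apart.

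The 6 samples held 30236120 to 52918696 counted reads. Levels are given as CPM (reads scaled to a common library total) after TMM scaling, a correction of the totals that assumes most genes to be alike. BLM Lamp1-depleted cells stood apart, since the gene Gm26917 took 38.4% of their reads and at most 7.10% elsewhere. Their TMM factor was 0.699, against 0.993 to 1.19 in the other 5 samples. The transcript of Lamp1 was higher in enriched than depleted cells by 1.75 on the log2 scale in sham and 1.77 in BLM lungs. The summed level of 6 endothelial marker genes rose from 1217 CPM in depleted to 9391 CPM in enriched sham cells, and from 907 to 10112 CPM in BLM cells. The summed level of 12 T cell markers went the other way, from 659 to 33.3 CPM in sham and from 387 to 18.3 CPM in BLM cells. That of 6 B cell markers went from 3063 to 162 CPM in sham and from 1309 to 63.4 CPM in BLM cells.

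To show the regulatory sequence that lies before these genes, the RefSeq promoter of 300 bases (250 before and 50 after the start, GRCm38.p6) was read for 39 of the 47 genes. No entry was matched for Ctsw, Klra11-ps, Klra13-ps, Klra14-ps, Klrb1-ps1, Klrd1, Klrg1 and Klri2. Each promoter was searched on both strands for a core RUNX motif, TGTGGT or its reverse complement ACCACA, and for a core T-box motif, TCACAC or its reverse complement GTGTGA. Neither motif contains the other. RUNX and T-box proteins are the families of Runx3, Tbx21 and Eomes, which shape cytotoxic lymphocytes. The RUNX letters were present in 20 of the 39 promoters (51.3%) and in 16.9% of all 27025 promoters in the table. The T-box letters were present in 7 of 39 (17.9%) and in 14.4% of all. Neighbouring genes of these families are copies of one another, so their promoters are not independent. The granzyme genes Gzmc, Gzmd, Gzme, Gzmf and Gzmg alone gave 5 of the 20, and 4 of these 5 genes either had no reads or did not reach 10. The match is a description of letters in a window and not a binding site.

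Of the Ly49 genes, 1 of 11 with a promoter in the table held the RUNX letters. The motifs did not track the levels gene by gene. The windows of Klra7, Klra8 and Klra9 hold neither motif, yet these genes were far lower in enriched cells, as Ncr1 was. Gzmm holds the RUNX letters and was not lower in enriched sham cells. Promoters are printed for Ncr1, Gzmb, Gzma and Prf1, which carry the results on NK cells and granules given below, and for Klra2, whose levels followed another course and whose window holds neither motif. They lie at chr7:4337465-4337764, plus strand (Ncr1), chr14:56262285-56262584, minus strand (Gzmb), chr13:113100932-113101231, minus strand (Gzma), chr10:61297586-61297885, plus strand (Prf1) and chr6:131247313-131247612, minus strand (Klra2). Each is written 5′ to 3′ on the strand of its gene, with the letters of either motif in capitals.
Ncr1: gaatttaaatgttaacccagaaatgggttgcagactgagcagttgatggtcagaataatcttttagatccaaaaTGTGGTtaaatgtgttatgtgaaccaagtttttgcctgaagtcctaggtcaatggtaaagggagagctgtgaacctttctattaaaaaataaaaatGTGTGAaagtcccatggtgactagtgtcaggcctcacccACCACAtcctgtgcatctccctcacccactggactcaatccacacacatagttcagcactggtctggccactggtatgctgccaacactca
Gzmb: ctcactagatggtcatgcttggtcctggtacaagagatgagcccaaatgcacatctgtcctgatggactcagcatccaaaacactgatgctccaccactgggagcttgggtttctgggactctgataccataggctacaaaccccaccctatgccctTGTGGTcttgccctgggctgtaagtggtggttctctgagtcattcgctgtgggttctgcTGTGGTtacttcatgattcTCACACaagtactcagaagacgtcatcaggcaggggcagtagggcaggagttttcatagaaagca
Gzma: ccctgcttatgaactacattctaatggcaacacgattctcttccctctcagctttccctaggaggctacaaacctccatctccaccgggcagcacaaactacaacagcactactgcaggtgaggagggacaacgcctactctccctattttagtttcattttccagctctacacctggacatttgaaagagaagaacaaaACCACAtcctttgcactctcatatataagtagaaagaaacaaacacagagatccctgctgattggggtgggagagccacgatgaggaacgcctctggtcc
Prf1: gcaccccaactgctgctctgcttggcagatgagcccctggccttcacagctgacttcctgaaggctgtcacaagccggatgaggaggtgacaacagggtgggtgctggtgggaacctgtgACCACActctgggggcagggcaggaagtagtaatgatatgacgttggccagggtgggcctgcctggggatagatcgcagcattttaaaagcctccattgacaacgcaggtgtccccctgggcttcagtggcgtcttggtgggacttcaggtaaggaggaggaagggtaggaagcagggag
Klra2: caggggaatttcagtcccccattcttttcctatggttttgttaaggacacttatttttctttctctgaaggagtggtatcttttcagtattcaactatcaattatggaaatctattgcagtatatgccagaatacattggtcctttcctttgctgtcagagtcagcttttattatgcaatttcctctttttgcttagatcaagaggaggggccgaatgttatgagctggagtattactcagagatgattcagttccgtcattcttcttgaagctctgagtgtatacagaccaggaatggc

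The first comparison asked which genes separated Lamp1-enriched from Lamp1-depleted cells. Nearly all killer lectin receptor and granule genes were far lower in Lamp1-enriched cells, in sham and BLM lungs alike. A gene was compared where the larger of its 2 counts reached 10. Of 40 such genes 37 were at least 4-fold lower in enriched cells in sham lungs, where 12.6% of all genes tested were. In BLM lungs the count was 29 of 37, where 12% of all genes were. None was 4-fold higher, where 15.6% of all genes were in sham and 19.2% in BLM lungs. The median log2 ratio of the set was -3.52 in sham and -3.50 in BLM lungs, against -0.01 and 0.29 over all genes. Summed over the 47 genes, the level was 581 CPM in depleted and 59.9 in enriched sham cells, and 269.7 and 31.6 CPM in the BLM fractions. All 12 T cell markers were at least 4-fold lower in enriched cells of both treatments, with medians of -4.27 and -4.33, and 7 of 9 NK cell markers outside the set were in each. The 4-fold losses thus ran together with those of other lymphocyte genes.

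**Figure D1:**
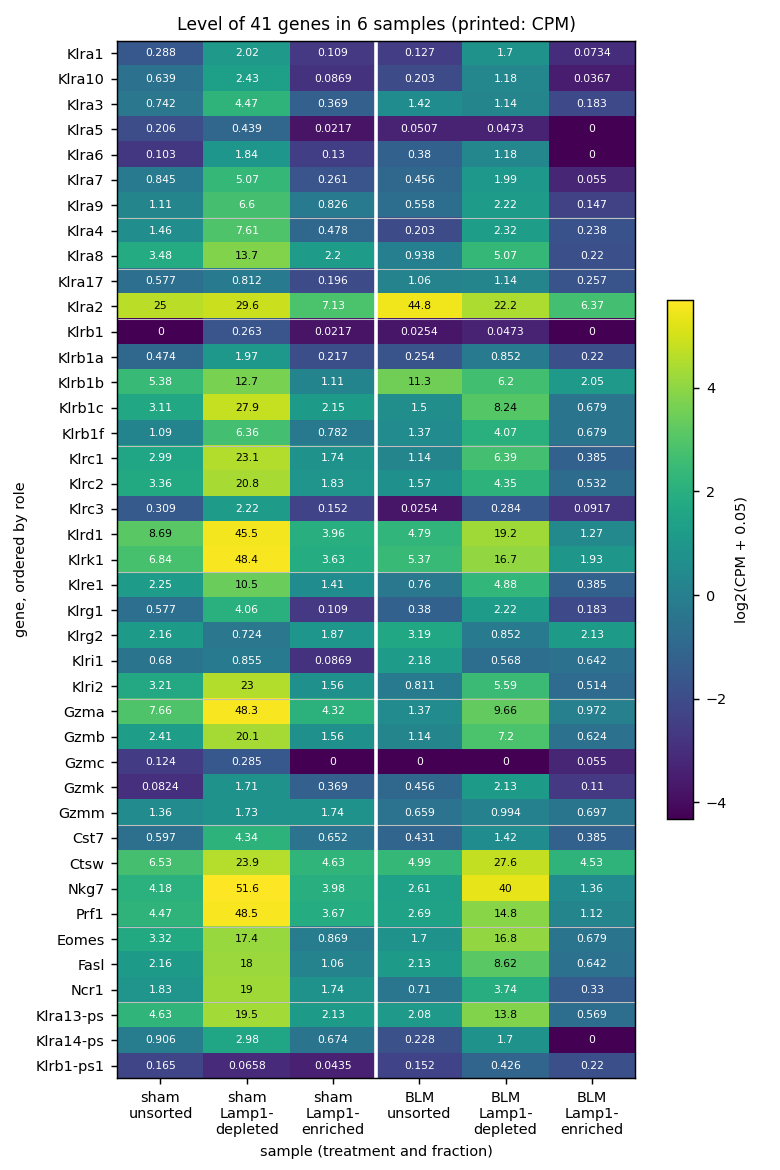
Level of the 41 genes that reached 10 reads, in CPM after TMM scaling, in the 6 samples; genes are ordered by role with thin lines between roles, the colour gives log2(CPM + 0.05) and the number in each cell the CPM. The Lamp1-depleted columns are the brightest in both treatments, the sham column more than the BLM column, and Klra2 is the brightest row of the unsorted columns.

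Depleted cells held the highest of the 3 levels for 38 of the 41 genes in sham and for 34 of 41 in BLM lungs. For 33 genes sham Lamp1-depleted cells were the highest of all 6 samples. Some reads may be shared between copies. In the annotation, 24 of the 47 genes share a stretch of 75 bases with another gene's transcripts and 23 do not. Of the 23, the count at least 4-fold lower in enriched cells was 19 of 22 tested in sham and 15 of 20 in BLM lungs, with medians of -3.46 and -3.37.

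The 7 inhibitory Ly49 receptors, which dampen the cell when they meet MHC class I, were all at least 4-fold lower in enriched than depleted sham cells, and so were the 6 of them tested in BLM lungs. Klra7 (Ly49G) measured 0.845 CPM in unsorted, 5.07 in Lamp1-depleted and 0.261 in Lamp1-enriched sham cells, and 0.456, 1.99 and 0.05504 CPM in the same BLM fractions. Klra9 (Ly49I) measured 1.11 CPM in unsorted, 6.603 in Lamp1-depleted and 0.826 in Lamp1-enriched sham cells, and 0.558, 2.22 and 0.147 CPM in the same BLM fractions. Klra3 (Ly49C) had 0.742 CPM in unsorted, 4.47 in Lamp1-depleted and 0.369 in Lamp1-enriched sham cells, and 1.42, 1.14 and 0.183 CPM in the same BLM fractions. For Klra7 and Klra9 the depleted cells stood above the other fractions in both treatments, whereas for Klra3 unsorted BLM cells were slightly above depleted BLM cells. The enriched over depleted log2 ratio of Klra7 was -4.22 (95% interval -5.25 to -3.45) in sham and -4.87 (95% interval -7.51 to -3.53) in BLM lungs. Klra1 (Ly49A), Klra10 (Ly49J) and Klra6 (Ly49F) measured 2.02, 2.43 and 1.84 CPM in depleted sham cells. Their enriched over depleted log2 ratios in sham lungs were -4.08, -4.64 and -3.71, each resting on few reads on the enriched side. Klra6 had 25 reads in depleted and 0 in enriched BLM cells, which makes it at least 21.5-fold lower against a floor of 3 reads. Klra5 (Ly49E) reached 20 reads in depleted sham cells and at most 10 in the others.

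Both activating Ly49 receptors followed the same course. Klra8 (Ly49H), which in C57BL/6 mice recognises a protein of mouse cytomegalovirus, measured 3.48 CPM in unsorted, 13.7 in Lamp1-depleted and 2.195 in Lamp1-enriched sham cells, and 0.938, 5.07 and 0.2202 CPM in the same BLM fractions. Klra4 (Ly49D) measured 1.46 CPM in unsorted, 7.61 in Lamp1-depleted and 0.478 in Lamp1-enriched sham cells, and 0.203, 2.32 and 0.238 CPM in the same BLM fractions. Every depleted sample stood above every unsorted and enriched sample of its treatment for both genes. The enriched over depleted log2 ratio of Klra8 was -2.64 (95% interval -2.96 to -2.34) in sham and -4.44 (95% interval -5.52 to -3.66) in BLM lungs, and that of Klra4 was -3.96 and -3.21. Klra8 shares 19.7% of its 75-base stretches with other genes, the pseudogene Klra14-ps first among them, so that reads of the pair may not be fully separated.

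Klra2 (Ly49B) and Klra17 (Ly49Q) belong to the family by sequence but are known from myeloid and plasmacytoid dendritic cells. Klra2 measured 24.97 CPM in unsorted, 29.6 in Lamp1-depleted and 7.13 in Lamp1-enriched sham cells, and 44.8, 22.2 and 6.37 CPM in the same BLM fractions. Unlike the NK cell receptors, it stood about as high in unsorted as in depleted sham cells, and in BLM lungs unsorted cells were the highest. The enriched over depleted log2 ratio was -2.05 (95% interval -2.23 to -1.88) in sham and -1.80 (95% interval -2.004 to -1.60) in BLM lungs, among the smallest losses of the set. Klra17 had 0.577 CPM in unsorted, 0.812 in Lamp1-depleted and 0.196 in Lamp1-enriched sham cells, and 1.06, 1.14 and 0.257 CPM in the same BLM fractions, with enriched over depleted log2 ratios of -1.99 and -2.09. Neither gene shares a 75-base stretch with another gene.

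The NKR-P1 family (Klrb1) was lower in enriched cells as well, but the BLM values of 1 member departed. Klrb1c, the antigen by which NK cells of C57BL/6 mice are usually stained, measured 3.11 CPM in unsorted, 27.9 in Lamp1-depleted and 2.15 in Lamp1-enriched sham cells, and 1.496, 8.24 and 0.679 CPM in the same BLM fractions. Its log2 ratio of enriched over depleted cells was -3.69 (95% interval -4.01 to -3.40) in sham and -3.58 (95% interval -4.15 to -3.08) in BLM lungs. Klrb1b, an inhibitory receptor for Clec2d, measured 5.38 CPM in unsorted, 12.7 in Lamp1-depleted and 1.11 in Lamp1-enriched sham cells, and 11.3, 6.201 and 2.05 CPM in the same BLM fractions. It was highest in depleted cells in sham lungs but in unsorted cells in BLM lungs. The ratio of Klrb1b was -3.51 (95% interval -3.97 to -3.11) in sham and -1.59 (95% interval -1.97 to -1.22) in BLM lungs, so that the intervals of both treatments lay apart. Klrb1c and Klrb1b both overlap the gene Gm44511 on the same strand. Klrb1f and Klrb1a reached 6.36 and 1.97 CPM in depleted sham cells, with log2 ratios of -3.01 and -3.12 in sham and -2.56 and -1.89 in BLM lungs. Klrb1 itself had 12 reads in depleted sham cells and at most 1 in the other samples.

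CD94 and the NKG2 chains followed the pattern of the NK cell Ly49 receptors. Klrd1 (CD94), the shared partner chain, measured 8.69 CPM in unsorted, 45.5 in Lamp1-depleted and 3.96 in Lamp1-enriched sham cells, and 4.79, 19.2 and 1.27 CPM in the same BLM fractions. Klrk1 (NKG2D), the receptor for stress-induced ligands, measured 6.84 CPM in unsorted, 48.4 in Lamp1-depleted and 3.63 in Lamp1-enriched sham cells, and 5.37, 16.7 and 1.93 CPM in the same BLM fractions. Klrc1 (NKG2A, inhibitory) measured 2.99 CPM in unsorted, 23.1 in Lamp1-depleted and 1.74 in Lamp1-enriched sham cells, and 1.14, 6.39 and 0.385 CPM in the same BLM fractions. All 3 genes were highest in sham depleted cells, second in BLM depleted cells and lowest in BLM enriched cells. Their enriched over depleted log2 ratios were -3.52 (95% interval -3.75 to -3.30), -3.73 (95% interval -3.97 to -3.51) and -3.72 (95% interval -4.08 to -3.40) in sham lungs. In BLM lungs they were -3.91, -3.11 and -4.01. Klrc2 (NKG2C, activating) measured 3.36 CPM in unsorted, 20.8 in Lamp1-depleted and 1.83 in Lamp1-enriched sham cells, and 1.57, 4.35 and 0.532 CPM in the same BLM fractions. Klrc3 (NKG2E) reached 2.22 CPM in depleted sham cells and 0.284 CPM, 6 reads, in depleted BLM cells. Klrc1 and Klrc3 share 26.7% and 28.9% of their 75-base stretches with other genes, Klrc2 first among them.

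Of the other killer lectin receptors, 3 followed the NK cell pattern and 2 did not. Klri2 and Klre1, whose proteins pair with each other on NK cells, measured 22.99 and 10.5 CPM in depleted sham cells and 1.56 and 1.41 CPM in enriched sham cells. Their log2 ratios of enriched over depleted cells were -3.87 and -2.89 in sham and -3.41 and -3.62 in BLM lungs. Klrg1, an inhibitory receptor of mature NK and effector T cells that binds cadherins, fell from 4.06 to 0.109 CPM between the sham fractions and from 2.22 to 0.183 CPM between the BLM fractions. Klri1, the other partner of Klre1, measured 0.6798 CPM in unsorted, 0.855 in Lamp1-depleted and 0.0869 in Lamp1-enriched sham cells, and 2.18, 0.568 and 0.642 CPM in the same BLM fractions. It was lowest in enriched cells in sham lungs, whereas in BLM lungs the 2 sorted fractions did not differ beyond counting error, with log2 ratios of -3.15 (95% interval -5.24 to -1.83) and 0.17 (95% interval -0.80 to 1.26). Klrg2 measured 2.16 CPM in unsorted, 0.724 in Lamp1-depleted and 1.87 in Lamp1-enriched sham cells, and 3.19, 0.852 and 2.13 CPM in the same BLM fractions. It was the only gene of the 47 to be higher in enriched than depleted cells of both treatments with an interval above 0, at 1.36 (95% interval 0.77 to 1.99) and 1.31 (95% interval 0.60 to 2.13). It lies at chr6:38625693-38637242 in GRCm38, on the same chromosome as the other Klr genes but far from their cluster.

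**Figure D2:**
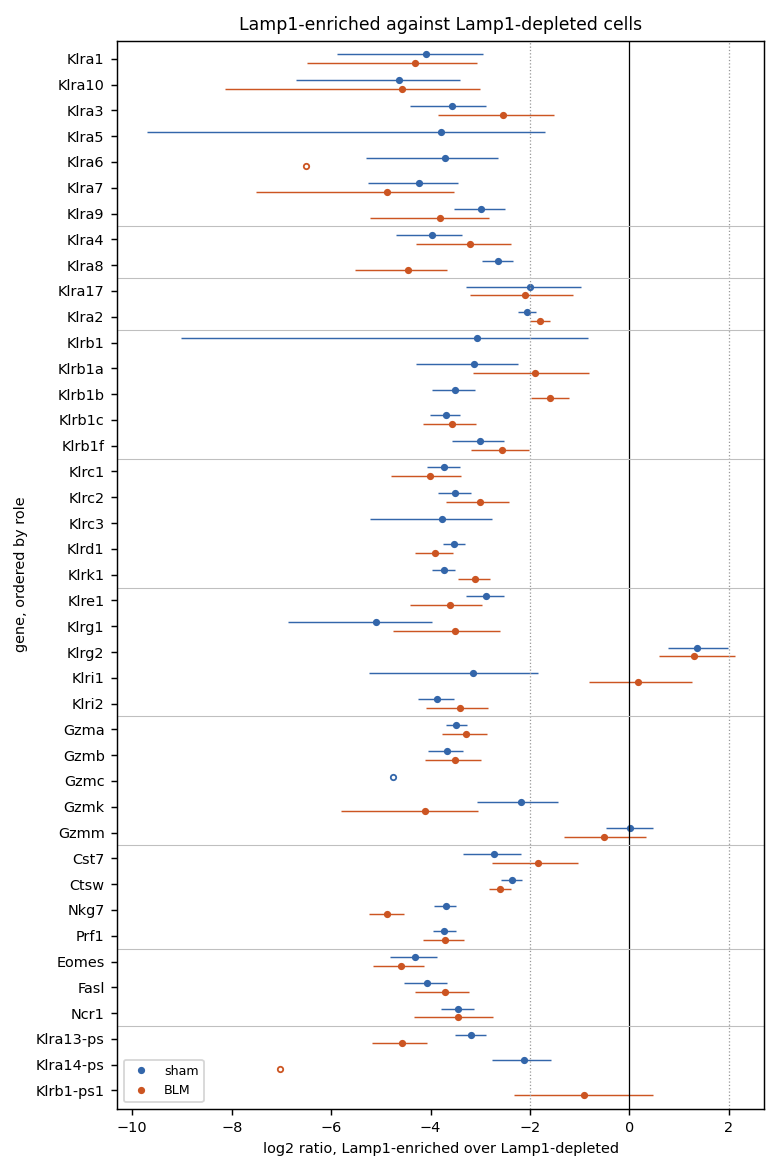
Log2 ratio of Lamp1-enriched over Lamp1-depleted cells for each gene in sham (blue) and BLM (orange) lungs, with 95% counting intervals as bars; open circles without a bar have 0 reads in enriched cells, and the dotted lines mark a 4-fold difference. Points lie left of the line at 0 for nearly all genes, while Klrg2 lies right of it in both treatments and Gzmm and the BLM value of Klri1 lie near it.

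The granzymes were represented by Gzma and Gzmb, while the copies on chromosome 14 beyond Gzmb were close to silent. Gzma (granzyme A), a trypsin-like protease, measured 7.66 CPM in unsorted, 48.3 in Lamp1-depleted and 4.32 in Lamp1-enriched sham cells, and 1.37, 9.66 and 0.972 CPM in the same BLM fractions. Gzmb (granzyme B), which activates caspases, measured 2.41 CPM in unsorted, 20.1 in Lamp1-depleted and 1.56 in Lamp1-enriched sham cells, and 1.14, 7.195 and 0.624 CPM in the same BLM fractions. Depleted cells were the highest fraction for both in each treatment, and the sham value exceeded the BLM value in every fraction. The enriched over depleted log2 ratio of Gzma was -3.48 (95% interval -3.70 to -3.27) in sham and -3.29 (95% interval -3.78 to -2.87) in BLM lungs, and that of Gzmb was -3.68 (95% interval -4.05 to -3.34) and -3.50 (95% interval -4.11 to -2.98). Gzmk (granzyme K), which is known from memory and effector T cells, measured 0.0824 CPM in unsorted, 1.71 in Lamp1-depleted and 0.369 in Lamp1-enriched sham cells, and 0.456, 2.13 and 0.1101 CPM in the same BLM fractions. The BLM over sham ratio of Gzmk in depleted cells, 0.31 (95% interval -0.25 to 0.86), did not differ from 0 beyond counting error, and its sign turned with total counts. Gzmc had 13 reads in depleted and 0 in enriched sham cells, at least 4.37-fold lower against the floor. Gzmm (granzyme M) was the exception, at 1.36 CPM in unsorted, 1.73 in Lamp1-depleted and 1.74 in Lamp1-enriched sham cells, and 0.659, 0.994 and 0.697 CPM in the same BLM fractions. Its enriched over depleted log2 ratio was 0.00 (95% interval -0.46 to 0.47) in sham and -0.50 (95% interval -1.32 to 0.33) in BLM lungs, and its sign depended on the scaling in both.

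Perforin and the other granule proteins were lower in enriched cells too. Prf1, the pore-forming protein, measured 4.47 CPM in unsorted, 48.5 in Lamp1-depleted and 3.67 in Lamp1-enriched sham cells, and 2.69, 14.8 and 1.12 CPM in the same BLM fractions. Nkg7, a membrane protein of the granule needed for its release, measured 4.18 CPM in unsorted, 51.6 in Lamp1-depleted and 3.98 in Lamp1-enriched sham cells, and 2.61, 40.05 and 1.36 CPM in the same BLM fractions. Ctsw (cathepsin W), a protease of NK and CD8+ T cells, measured 6.53 CPM in unsorted, 23.9 in Lamp1-depleted and 4.63 in Lamp1-enriched sham cells, and 4.99, 27.6 and 4.53 CPM in the same BLM fractions. The enriched samples of Ctsw were nearly the same in both treatments, whereas those of Prf1 and Nkg7 were lower in BLM lungs. The enriched over depleted log2 ratio was -3.72 (95% interval -3.96 to -3.50) and -3.71 (95% interval -4.15 to -3.33) for Prf1 in sham and BLM lungs, and -3.69 (95% interval -3.92 to -3.48) and -4.87 (95% interval -5.25 to -4.54) for Nkg7. With total counts in place of TMM the ratios of Nkg7 were -3.87 and -4.31, so that the gap between the treatments depended on the scaling. For Ctsw the ratios were -2.37 and -2.60, and for Cst7 (cystatin F), which holds granule cathepsins in check, -2.72 and -1.85. Ctsw overlaps the gene Fibp on the opposite strand, and the strand setting of the counts is not given in the sources used here.

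The last 3 genes mark the cells or complete their killing. Ncr1 (NKp46), the activating receptor that defines NK cells across mouse strains, measured 1.83 CPM in unsorted, 19.00 in Lamp1-depleted and 1.74 in Lamp1-enriched sham cells, and 0.7098, 3.74 and 0.3302 CPM in the same BLM fractions. Eomes, a T-box factor of NK and CD8+ T cells, measured 3.32 CPM in unsorted, 17.4 in Lamp1-depleted and 0.869 in Lamp1-enriched sham cells, and 1.698, 16.8 and 0.679 CPM in the same BLM fractions. Fasl, the ligand that triggers the death receptor Fas, measured 2.16 CPM in unsorted, 17.99 in Lamp1-depleted and 1.06 in Lamp1-enriched sham cells, and 2.13, 8.62 and 0.642 CPM in the same BLM fractions. Each was highest in depleted cells in both treatments. For Ncr1 and Fasl the BLM value was below the sham value in depleted cells, while for Eomes both were alike. The enriched over depleted log2 ratios in sham and BLM lungs were -3.44 (95% interval -3.80 to -3.12) and -3.45 (95% interval -4.33 to -2.75) for Ncr1, -4.31 and -4.60 for Eomes, and -4.06 and -3.72 for Fasl.

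Of the pseudogenes, Klra13-ps gave the most reads, at 4.63 CPM in unsorted, 19.5 in Lamp1-depleted and 2.13 in Lamp1-enriched sham cells, and 2.08, 13.8 and 0.569 CPM in the same BLM fractions. Klra14-ps had 36 reads in depleted and 0 in enriched BLM cells, at least 30.96-fold lower. It was 4.43-fold lower in enriched than depleted sham cells. Klrb1-ps1 had at most 12 reads in any sample. Per kilobase of exon the order of the set in depleted sham cells was led by Nkg7, at 56.4 RPKM (the CPM divided by the exon length), and then by Gzma at 48.01, Klrd1 at 35.5 and Prf1 at 18.8 RPKM. In depleted BLM cells the order was Nkg7 at 43.8, Klrd1 at 15.0029, Ctsw at 14.6, Klra13-ps at 13.3 and Klra2 at 11.7 RPKM, of which Klrd1 and Ctsw were close to each other, and Gzma had 9.599 RPKM.

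Both sorted fractions were also set against unsorted cells of the same treatment. The depleted fraction held more of the NK and granule transcripts than unsorted cells, and the enriched fraction moderately less. The T cell marker sum was likewise 46.7 CPM in unsorted, 659 in depleted and 33.3 in enriched sham cells. In the same BLM fractions it was 47.8, 387 and 18.3 CPM. Unsorted cells thus stood nearer to enriched than depleted cells, although the paper reports surface Lamp1 on a minority of lung cells. Why the fractions differed in this way was not tested. In depleted over unsorted cells, 28 of 40 genes were at least 4-fold higher in sham lungs (6.92% of all genes) and 22 of 36 in BLM lungs (6.54% of all genes), with medians of 2.56 and 2.28. The BLM count depended on the scaling. With total counts in place of TMM it was 11 of 36 (4.17% of all genes), and 2 were at least 4-fold lower (24.2% of all genes). The BLM median was then 1.78, against -0.84 over all genes. In enriched over unsorted cells, 5 of 37 were at least 4-fold lower in sham lungs (4.97% of all genes) and 7 of 34 in BLM lungs (9.03% of all genes), with medians of -0.91 and -1.28. The 5 in sham lungs were Klri1, Klra5, Klra10, Klrg1 and Klrb1b. The 7 in BLM lungs were Klra6, Klra3, Klra7, Klra2, Klrb1b, Klra8 and Klra17, which include both Ly49 genes known from myeloid cells. The sum of 7 monocyte or macrophage markers was 18059 CPM in unsorted BLM cells, against 2654 CPM in depleted and 2340.3 CPM in enriched BLM cells. Both sorted fractions thus held far less of it than unsorted cells. Whether the unsorted sample came from the suspension that was sorted is not given in the labels. The part of these cells in the Klra2, Klra17 and Klrb1b values was not tested. The enriched over unsorted log2 ratios of Ncr1, Nkg7 and Prf1 were -0.08, -0.07 and -0.28 in sham lungs, among the smallest of the set, and -1.08, -0.94 and -1.26 in BLM lungs. Those of Klrd1 were -1.13 and -1.91, and those of Eomes -1.92 and -1.31.

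Sham and BLM lungs each gave 1 enriched and 1 depleted sample, which allowed a single test with treatment as a block. In edgeR's quasi-likelihood test with Benjamini-Hochberg adjustment, 32 of 36 genes kept by its filter were lower in enriched cells at an adjusted p below 0.05 and none was higher, where 19.2% of all genes tested were lower. At an unadjusted p below 0.05 the count was 33. The 4 genes that edgeR did not call were Gzmm (adjusted p = 0.743), Klri1 (adjusted p = 0.272), Klrg2 (adjusted p = 0.139) and Klra17 (adjusted p = 0.06403). The test had 1 residual degree of freedom, with dispersions pooled across genes, so its p rests little on the spread of the gene itself. With treatment as a block, that 1 degree holds how far the difference between fractions varied between the 2 treatments. The p does not measure the spread between mice. With BLM Lamp1-depleted cells left out and unsorted cells added, 33 of 39 genes were lower, a setting chosen after the data were seen.

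Genes that work with these receptors and granules were taken from lists drawn up from their known roles. Of 18 adapters and signalling genes, 13 were at least 4-fold lower in enriched than depleted sham cells and 12 in BLM cells. Over all genes tested the shares were 12.6% and 12%, which also stand beside the counts of the lists that follow. Lck, the kinase of T cell and NK receptors, had log2 ratios of -4.37 and -5.28. Txk, Sh2d2a and Sh2d1a, further signalling genes of T and NK cells, had ratios of -4.02, -4.11 and -4.66 in sham lungs. Most genes of this list are also used by T cells. Of 20 other receptors, 13 and 11 were 4-fold lower, among them Il2rb, the receptor chain for the survival signals of NK cells, at -4.08 and -5.20, then Slamf6, Crtam and Il18rap. The 2 that were 4-fold higher in both treatments, named after their values were seen, were the integrins Itga1 and Itga2, which endothelial cells also express, at 3.05 and 2.23 in sham lungs.

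Of 13 transcription factors, 6 were 4-fold lower in sham and 7 in BLM lungs. Tbx21 (T-bet) had log2 ratios of -3.97 and -4.88, Runx3 -4.08 and -4.70, and Ikzf3 -4.21 and -5.34. Zfp683 (Hobit) was at 0.965 CPM in depleted and 0.0435 CPM in enriched sham cells. Of 10 cytokines and chemokines, 7 were 4-fold lower in each treatment, including Xcl1, Ltb, Lta and Ccl5. Ltb had ratios of -4.20 and -4.94, and Ccl5, a chemokine of effector T and NK cells, -3.41 and -4.18. Tnfsf10 (TRAIL) was the 1 gene of that list to be 4-fold higher, at 3.12 and 4.28, and it was named after its values were seen.

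The machinery that builds and releases granules did not share the loss. Of its 16 genes 1 was 4-fold lower in sham and 2 in BLM lungs, where 12.6% and 12% of all genes were. In the higher direction the counts were 1 and 3, where 15.6% and 19.2% of all genes were. With so few genes the counts alone are not read as a result about this list. The medians were 0.80 in sham and 0.56 in BLM lungs. Stxbp2, a fusion protein needed for granule release, was lower in both, at -2.91 and -3.61. Many of these genes serve lysosomes of every cell, and Lamp1, the sorted protein, is on the list. Of the ligands that the receptors bind, 3 of 13 tested were 4-fold lower in sham and 4 of 15 in BLM lungs, where 12.6% and 12% of all genes were. In the higher direction 3 were 4-fold apart in each, near the 15.6% and 19.2% over all genes. With so few ligands these counts are not read as a result about the list. H60b, an NKG2D ligand, had ratios of -4.13 and -3.81, and Clec2i, an NKR-P1 ligand, -3.54 and -3.87. Fas, the receptor of Fasl, had ratios of 2.47 and 2.78, and the cadherin Cdh4 2.37 and 3.75.

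The second comparison set BLM against sham lungs within a fraction. In Lamp1-depleted cells, where these genes were most abundant, 25 of 40 were at least 2-fold lower in BLM lungs (22.3% of all genes) and 0 of 40 were at least 2-fold higher (13.7% of all genes). The median log2 ratio was -1.22, against -0.20 over all genes. Ncr1 fell by 2.34 on the log2 scale, Gzma by 2.32, Klrc2 by 2.25 and Klri2 by 2.04. The intervals were -2.70 to -2.01 for Ncr1 and -2.54 to -2.11 for Gzma. Klra3 had a ratio of -1.96, Klrc1 -1.85, Klrb1c -1.76, Prf1 -1.71, Klrk1 -1.53 and Gzmb -1.48. Nearer to 0 stood Nkg7, at -0.37 (95% interval -0.48 to -0.25), Eomes, at -0.05 (95% interval -0.24 to 0.13), and Ctsw, at 0.21 (95% interval 0.06 to 0.35), as did Klra1 at -0.24, Klrg2 at 0.23 and Gzmk at 0.31. The signs of the Eomes and Ctsw values turned with the scaling, as did those of Gzmk, Klra17 and Klrg2. Gzmc had 13 reads in sham and 0 in BLM depleted cells, at least 2.01-fold lower.

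Scaling mattered most in this fraction, because of the library with 38.4% of its reads on 1 gene. With total counts in place of TMM the median became -1.93 over the set and -0.92 over all genes, the count 2-fold lower 34 of 40, and the share of all genes 2-fold lower 46.8%. Such a scaling moves all ratios of a comparison alike, and so bears on the counts but not on the difference between both medians, which was -1.02. T cell genes were lower too. Of the 12 T cell markers 4 were at least 2-fold lower in depleted cells, with a median of -0.56, and Cd3e, a chain of the T cell receptor complex, had a log2 ratio of -1.13 (95% interval -1.23 to -1.04). The 9 NK markers outside the set did not share the lower level, with a median of 0.00, none of them 2-fold lower, and a sum that moved from 384 to 499.5 CPM. That list is not limited to NK cells, since it holds Txk, a gene of T and NK cells, and Tyrobp, an adapter that myeloid cells also use. In the same depleted cells the sum of 5 neutrophil markers went from 44.0 to 299 CPM. In unsorted cells the NK marker sum went from 110 to 366 CPM, and the monocyte or macrophage marker sum from 2144 to 18059 CPM. The part of other cell types in the NK marker values was not tested.

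**Figure D3:**
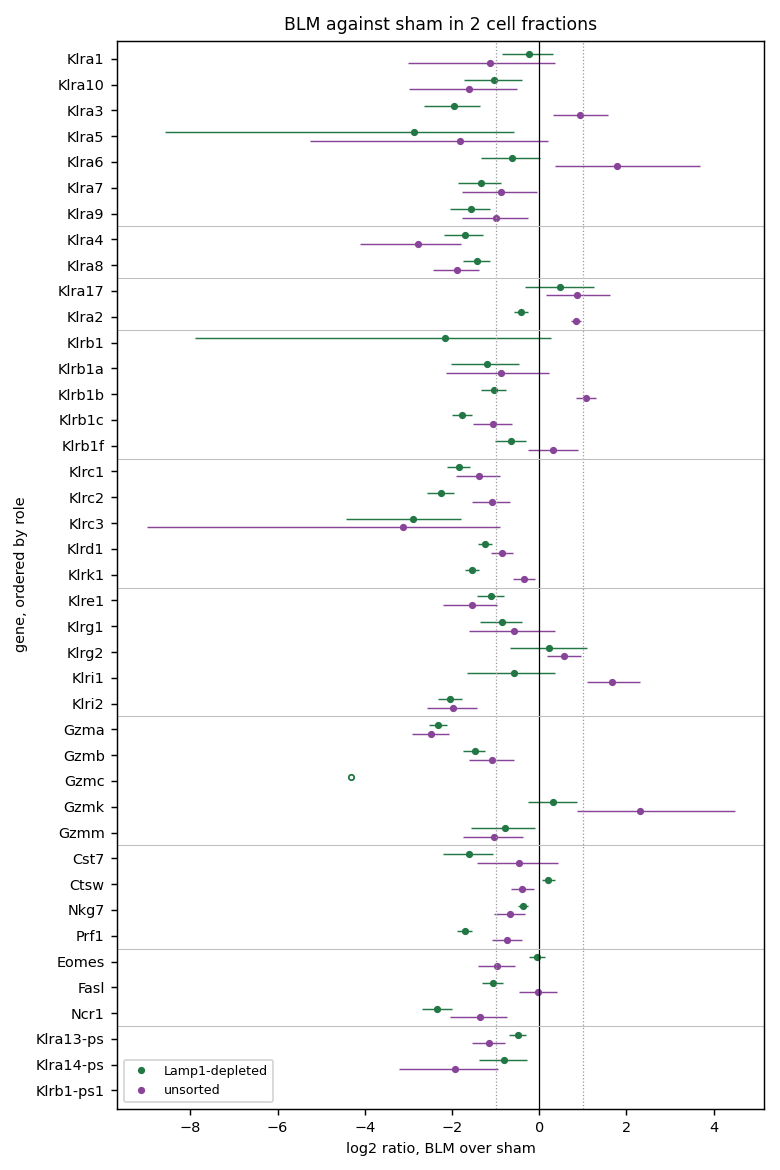
Log2 ratio of BLM over sham in Lamp1-depleted (green) and unsorted (purple) cells for each gene, with 95% counting intervals as bars; the open circle without a bar (Gzmc) has 0 reads in BLM cells, dotted lines mark a 2-fold difference, and a gene with under 10 reads in both samples has no point. Most green points lie left of the line at 0, Ncr1, Gzma and Klrc2 among the farthest with narrow intervals, whereas the purple points of Klra2, Klra3, Klra6, Klrb1b, Klri1 and Gzmk lie right of it.

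A ratio of reads within a sample does not depend on the scaling between samples, so the genes were also set against Cd3e. In depleted cells there were 16.4 Ncr1 reads per 100 Cd3e reads in sham (15.2 to 17.6) and 7.07 in BLM lungs (5.56 to 8.89). For Gzma the values were 41.7 (39.7 to 43.8) and 18.3 (15.7 to 21.2). For Klrb1c they were 24.1 and 15.6, and for Prf1 41.9 and 28.02. These 4 genes of NK cells and killing fell against Cd3e, and their intervals in sham and BLM cells did not meet. Klrd1 went from 39.3 to 36.3 and Klra8 from 11.8 to 9.58, with intervals that overlapped. Nkg7 rose from 44.6 (42.4 to 46.8) to 75.7 (69.2 to 82.9) per 100 Cd3e reads, Eomes from 15.04 to 31.8, Ctsw from 20.6 to 52.2 and Gzmk from 1.48 to 4.03. Klrk1 and Gzmb, at log2 values of -0.40 and -0.35 relative to Cd3e, were among the genes that fell against it. The Ly49 genes lay on both sides, with Klra3 at -0.83 and Klra4 at -0.58 but Klra1 at 0.89, Klra2 at 0.71 and Klra17 at 1.61, all with intervals apart. Over the 40 genes tested, 12 were lower against Cd3e with intervals apart, 9 were higher, and the median relative to Cd3e was -0.09. The median difference of the set in depleted cells was thus about that of Cd3e, with genes to both sides of it. Cd3e is a single gene, and its BLM over sham ratio of -1.13 lay below the median of -0.56 over the 12 T cell markers. By CPM neither Nkg7 (-0.37) nor Eomes (-0.05) was higher in BLM depleted cells, so their rise holds only relative to Cd3e.

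**Figure D4:**
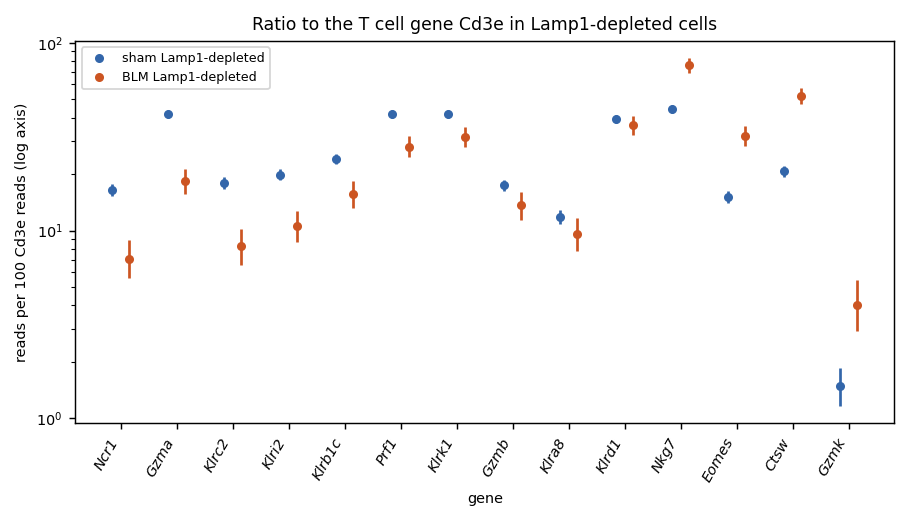
Reads per 100 Cd3e reads in Lamp1-depleted cells of sham (blue) and BLM (orange) lungs on a log axis, with 95% counting intervals as bars; genes are ordered by the BLM over sham ratio. Ncr1 falls from 16.4 to 7.07 at the left, Klrd1 is nearly level, and Nkg7, Eomes, Ctsw and Gzmk rise at the right.

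In the other fractions Ncr1 was also lower against Cd3e in BLM cells. It stood at 27.4 reads per 100 Cd3e reads in unsorted sham and 12.6 in unsorted BLM cells, and at 33.8 and 11.8 in enriched sham and BLM cells. Gzma went from 114 to 24.2 in unsorted and from 83.97 to 34.6 in enriched cells. All these intervals lay apart between sham and BLM. The 4 genes that rose against Cd3e in depleted cells differed in the other fractions. Ctsw rose in enriched cells, from 89.9 to 161.4, and Gzmk in unsorted cells, from 1.23 to 8.07, both with intervals apart, although Gzmk rested on 4 reads in sham cells. Eomes fell in unsorted cells, from 49.5 to 30.04 with intervals apart, and Nkg7 went from 62.5 to 46.2 there with overlapping intervals. Sham lungs held more Ncr1 reads per 100 Cd3e reads in enriched than depleted cells, 33.8 (25.9 to 43.7) against 16.4 (15.2 to 17.6). In BLM lungs the values of 11.8 (6.79 to 19.2) and 7.07 (5.56 to 8.89) overlapped. In sham lungs 37 of 40 genes lost less than Cd3e between depleted and enriched cells, 25 of them with intervals apart. In BLM lungs 28 of 37 did, 14 of them with intervals apart, while 1 gene, Nkg7, lost more with intervals apart.

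In unsorted cells, 17 of 38 genes were at least 2-fold lower in BLM lungs (16% of all genes) and 4 of 38 were at least 2-fold higher (13.9% of all genes), with a median of -0.92 against -0.07 over all genes. Gzma fell from 7.66 to 1.37 CPM, a log2 ratio of -2.48 (95% interval -2.92 to -2.07). Klra4 fell from 1.46 to 0.203 CPM and Klri2 from 3.21 to 0.811 CPM, ratios of -2.78 and -1.97. The activating Ly49 genes Klra4 and Klra8 had BLM values below the sham values in 3 of 3 fractions, although the interval of Klra4 in enriched cells included 0. The 4 genes that were 2-fold higher were Klrb1b, Klri1, Klra6 and Gzmk. Klrb1b had a ratio of 1.07 (95% interval 0.85 to 1.30) and Klri1 one of 1.66 (95% interval 1.09 to 2.31), while Klra6 and Gzmk rested on 5 and 4 reads in sham cells. Klra2 was 0.84 (95% interval 0.74 to 0.95), short of the 2-fold mark, and Klra3 0.93 (95% interval 0.31 to 1.58). Beside these values, the monocyte or macrophage marker sum went from 2144 to 18059 CPM, with all 7 markers at least 2-fold higher and none at 0, and the alveolar macrophage sum of 4 genes from 378 to 1932 CPM. Their part in the values of Klrb1b, Klri1, Klra2 and Klra3 was not tested. Of the 18 adapters and signalling genes, 9 were at least 2-fold higher and none 2-fold lower in unsorted BLM cells, with a median of 1.04. The median there was -0.20 over the 12 T cell markers and 2.77 over the 7 monocyte or macrophage markers. Which cells the adapter values came from was not tested.

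In Lamp1-enriched cells, 18 of 34 genes were at least 2-fold lower in BLM lungs (7.86% of all genes) and 2 of 34 were at least 2-fold higher (10.2% of all genes), with a median of -1.31 against 0.00 over all genes. Levels there were low, since the 47 genes together summed to 31.6 CPM in enriched BLM cells. Klra8 fell from 2.195 to 0.2202 CPM, a ratio of -3.26 (95% interval -4.32 to -2.45), and Ncr1 from 1.74 to 0.3302 CPM, a ratio of -2.36 (95% interval -3.22 to -1.65). Klra14-ps had 31 reads in sham and 0 in BLM cells, at least 12.2-fold lower. The 2 genes that were higher were Klri1, at 2.75 (95% interval 1.40 to 4.84), and the pseudogene Klrb1-ps1, which had 2 reads in sham and 12 in BLM cells. Klrb1b had a ratio of 0.88 (95% interval 0.40 to 1.40), short of 2-fold. The T cell markers had a median of -0.91 and Cd3e a ratio of -0.87 (95% interval -1.18 to -0.58) in this fraction, and the median of the set relative to Cd3e was -0.44.

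**Figure D5:**
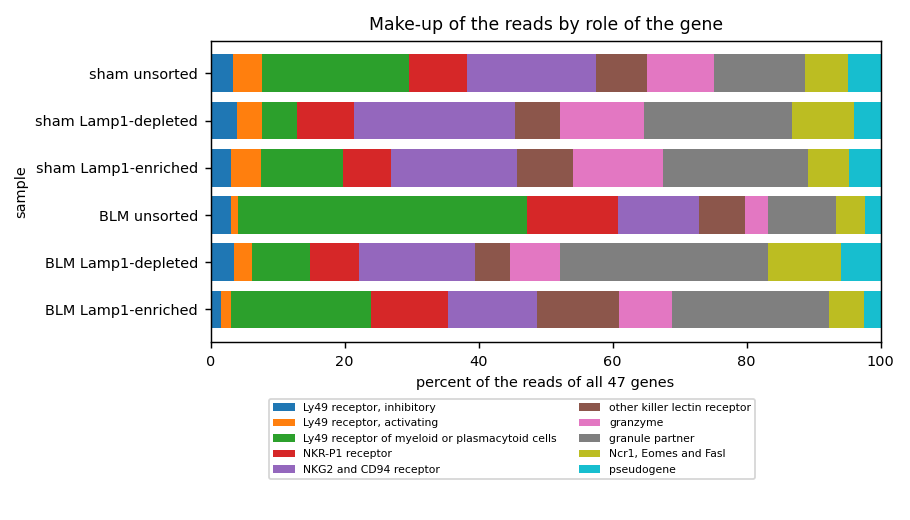
Share of each role in the reads of all 47 genes, in percent and not corrected for gene length, for the 6 samples. The Ly49 genes known from myeloid cells (green) take 43.1% in unsorted BLM cells, granzymes (pink) take less in each BLM sample than in its sham counterpart, and granule partners (grey) take the largest share in depleted BLM cells.

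The make-up of the set therefore differed between samples. Klra2 alone took 21.5% of the reads of the 47 genes in unsorted sham cells and 42.1% in unsorted BLM cells, against 5.10% and 8.21% in the depleted fractions. Granzymes took 12.4% in depleted sham and 7.46% in depleted BLM cells, 10.1% and 3.41% in unsorted cells, and 13.4% and 7.90% in enriched cells. Their share was lower in BLM lungs in 3 of 3 fractions. NKG2 and CD94 receptors took 24.1% in depleted sham and 17.4% in depleted BLM cells. Granule partners (Prf1, Nkg7, Ctsw and Cst7) took 22.1% and 31.1%, in which Nkg7 and Ctsw differed by less than 2-fold while Prf1 fell. In unsorted cells the share of granule partners went the other way, from 13.6% to 10.1%, beside the rise of Klra2.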

How the data were processed

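Poly(A) RNA was sequenced from 6 samples, 1 per condition, grouped by their labels. The authors deposited raw counts, whole numbers of reads per gene that had not been normalized. The submitters' processing notes name Trimmomatic 0.36, STAR 2.5.2b, featureCounts, Subread 1.5.2, DESeq2 and GRCm38, and the strand setting, the treatment of reads that map to several genes and the annotation release are not given in the sources used here.

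Counts were scaled with TMM (edgeR 4.0.16, R 4.3.3). Log2 ratios used a prior of 0.5 reads and required 10 reads in the larger count (Python 3.11.15, numpy 2.4.6, scipy 1.17.1, pandas 2.3.3). Fold thresholds were 4 between fractions and 2 between treatments. The quasi-likelihood test used the 4 sorted samples with treatment as a block and filterByExpr. Every gene of the set with 10 reads was to be named. Listed pathway genes were named where 4-fold apart in both treatments, the 4 largest per list. The members and lists were chosen with earlier results of these data known. Gene positions and shared 75-base stretches came from GENCODE M21, where all 47 genes were found. Figures used matplotlib 3.10.9.

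On simulated counts for the sham fractions (21181 unchanged genes), 95.7% of intervals covered the true ratio, all 200 changed genes were recovered and 16 unchanged genes passed 4-fold. In the simulated quasi-likelihood test 195 of 200 were recovered, with 6 calls among 20416 unchanged genes. The first run held counting error only, and the changes set in both runs were well past 4-fold, so these outcomes were largely fixed by the setting. The libraries simulated for the test were alike but for 200 genes, whereas 8386 of 20593 genes were called in the data. None had the Gm26917 share of BLM Lamp1-depleted cells. Both runs check the calculation and not its performance on these data. Alternatives changed the scaling, the read minimum, the prior, the fold and the test (DESeq2 1.42.0).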

Additional observations from a re-analysis of the deposited data

Results flagged for a closer look

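Some genes differed between BLM and sham lungs in opposite directions in different fractions, with counting intervals on either side of 0. With 1 sample per condition, none of these differences was tested. Klrb1b had a BLM over sham log2 ratio of 1.07 in unsorted, -1.04 in depleted and 0.88 in enriched cells. Klra3 had 0.93 in unsorted and -1.96 in depleted cells, and Klra2 had 0.84 and -0.42. Gzmk had 2.32 in unsorted cells, resting on 4 sham reads, and -1.66 in enriched cells. Ctsw had -0.39 in unsorted and 0.21 in depleted cells, where the sign of the second value turned with total counts. The depleted values rest on the BLM sample with 38.4% of its reads on Gm26917. The monocyte or macrophage marker sum went from 2144 to 18059 CPM in unsorted, from 1563 to 2654 CPM in depleted and from 884 to 2340.3 CPM in enriched cells, and its part in these values was not tested.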

How the results depend on the processing

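Of 63 alternative values computed, 54 stayed close to the reported value and 9 did not. Close meant within 1.5 times for a count of genes. For a median log2 ratio it meant a move below the median half-width of the single genes' counting intervals, 0.36 to 0.68. That width is not the error of the median itself. No alternative was computed for the shares or for Ncr1 against Cd3e. Requiring 50 reads left 18 genes 4-fold lower in enriched than depleted BLM cells, since fewer genes were then compared. Of genes lower in enriched than unsorted cells there were 1 in sham and 3 in BLM lungs at 50 reads, 16 and 22 at 2-fold, 0 and 1 at 8-fold, and 11 in BLM lungs at 1 read. With total counts the median BLM over sham ratio in depleted cells was -1.93. The quasi-likelihood count of 32 genes was 28 without the treatment block and 30 to 34 in the other settings. For this test the count over all genes lower in enriched cells fell from 3964 to 1564 with total counts and to 2392 without the block. With total counts the split of all genes at 2-fold in depleted cells was 46.8% lower and 6.79% higher. DESeq2 size factors moved every ratio in BLM depleted cells by about 0.15. With genes at 0 reads set to their bound, the median of the set was -3.51 between the sham sorted fractions and -1.15 for BLM over sham in depleted cells. No replicate could be left out within a condition, since each has 1 sample. The test of the sorted fractions paired them by treatment, and BLM against sham with the fraction as a block was not run.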
